A study of Mus musculus with 8 samples.

Results

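The 8 troponin genes of striated muscle were followed in the mouse esophagus, in 4 libraries from MGL KO mice and 4 libraries from WT mice. They were chosen by name, as all slow, fast and cardiac isoforms of troponin T (Tnnt1, Tnnt3, Tnnt2), troponin I (Tnni1, Tnni2, Tnni3) and troponin C (Tnnc1, Tnnc2), and they are 8 of the 32849 gene symbols in the deposited table. All 8 were among the 14864 genes tested. MGL, monoacylglycerol lipase, is the enzyme that hydrolyzes the endocannabinoid 2-arachidonoylglycerol, and the comparison asked how its absence alters the transcriptome of the esophagus in healthy animals. The KO mice carry a global deletion of MGL and were bred in-house with WT littermates, so that the deletion is not limited to muscle or epithelium. The labels name no treatment, age, sex or strain, and the study's methods state only for its mouse experiments in general that young adults of both sexes were used. Each group is described as 4 esophagi, and the labels give the libraries no animal, litter or date, so p-values measure the spread between these libraries.

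Troponin is the calcium switch of striated muscle. Troponin T anchors the complex to tropomyosin on the thin filament, troponin I holds back the binding of myosin to actin, and troponin C binds calcium and releases that block. Slow fibers, fast fibers and heart muscle use different genes for these subunits, and slow fibers and heart muscle share Tnnc1. The muscular wall of the mouse esophagus is largely striated, unlike the gut below it, where smooth muscle regulates contraction without troponin.

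Total counts lay between 13479069 and 17090152 per library. Expression is given as normalized CPM, the count scaled to a library size that was summed over the tested genes and TMM-adjusted, and 3 counts equaled between 0.167 and 0.271 normalized CPM. Mgll, the targeted gene, was at 13.7 ± 1.54 normalized CPM (SD, n = 4) in MGL KO and 81.2 ± 9.97 (SD, n = 4) in WT. The 17 skeletal muscle markers (such as Ckm and Ryr1) summed to between 28200 and 57210 normalized CPM, with the highest sum in MGL KO replicate 2 and the lowest in MGL KO replicate 4. The 12 squamous epithelium markers (such as Krt5 and Krt13) summed to between 4800 and 19601, with the lowest sums in MGL KO replicate 2 and WT replicate 3. The 4 Y-linked genes were read in all 8 libraries, with sums of 186 to 224. MGL KO replicate 4 stood apart from the other 7 libraries in heart and airway genes, with values given beside the cardiac troponins, and results that rest on it are given with and without it. In whole tissue, fewer cells of a type and less RNA per cell cannot be told apart.

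No troponin gene passed the test between the genotypes. With edgeR's quasi-likelihood test and Benjamini-Hochberg adjustment over all tested genes, 0 of 8 members had an adjusted p under 0.05, where 0.0471% of all tested genes did. At an unadjusted p under 0.05 there were 3 of 8 members (Tnnt2, Tnni3 and Tnnc1, each highest in MGL KO replicate 4), beside 8.65% of all genes. The 2 groups overlapped in all 8 members, whereas they were fully separate in 6.02% of all genes. The fitted difference was higher in MGL KO for 7 members (Tnni2 turned to -0.0059 when scaled by library size alone) and lower for Tnnc2, and the median log2 fold change of the 8 was 0.75, beside 0.02 over all tested genes. Both moved up and down when single libraries were left out. The median was lowest without MGL KO replicate 2, at 0.17 with 4 of 8 members higher, and highest without WT replicate 3, at 1.07 with 8 of 8 higher. Without MGL KO replicate 4 it was 0.35 with 6 of 8 higher, and without WT replicate 1 it was 0.48 with 6 of 8 higher.

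**Figure D1:**
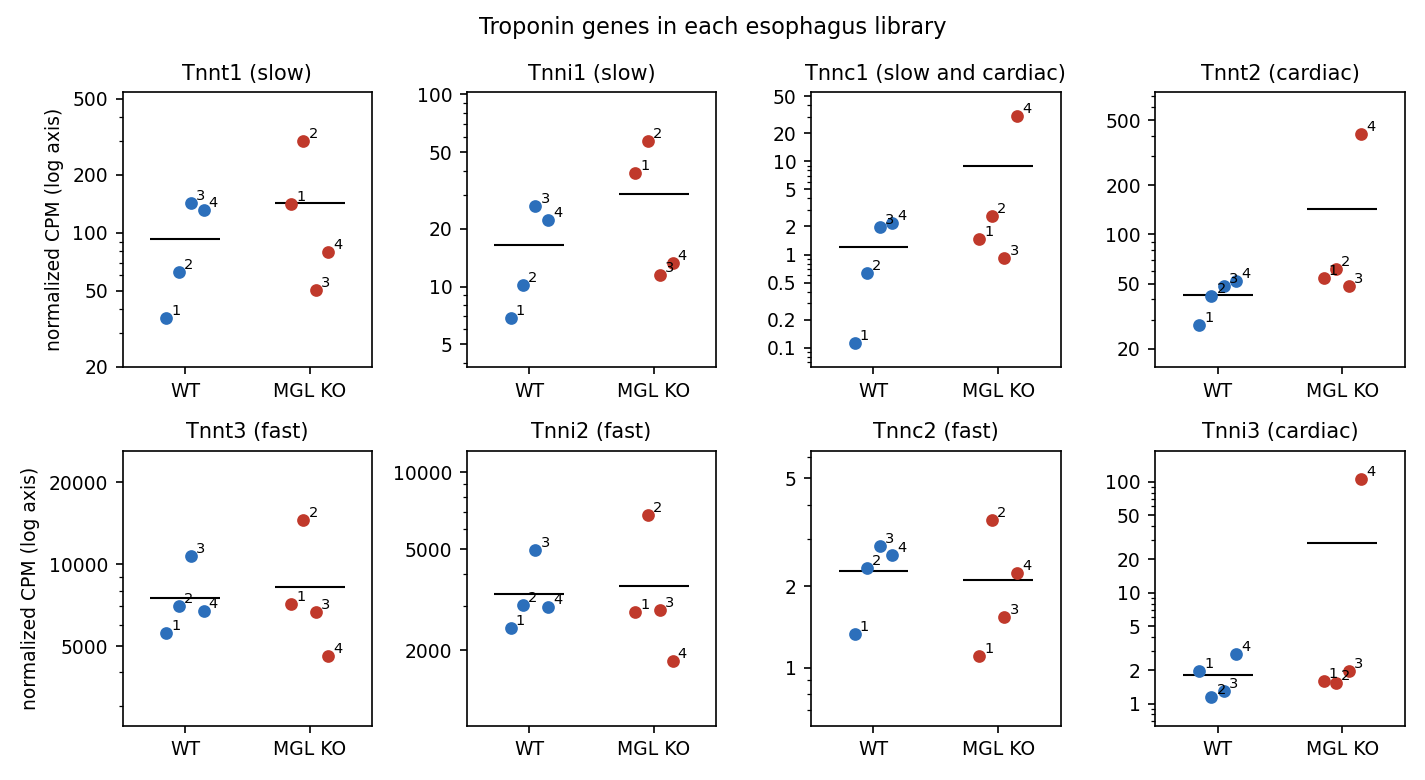
Normalized CPM of the 8 troponin genes in each library (vertical log axes, with a different range in each panel), with WT in blue and MGL KO in red, replicate numbers beside the points and lines at the group means. The groups overlap in every panel, MGL KO replicate 2 is highest in 5 genes, and MGL KO replicate 4 is far above the rest in Tnnc1, Tnnt2 and Tnni3.

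To rank the isoforms, levels were divided by the exonic length of each gene. Fast troponin T and I were far more abundant than their slow and cardiac forms. Tnni2 had a median level over the 8 libraries of 1757 normalized CPM per kb (range 1097 to 4079), and Tnnt3 had a median level of 1519 normalized CPM per kb (range 1016 to 3222). Next came slow Tnnt1, with a median of 44.2 normalized CPM per kb and a range from 15.1 to 126. This range overlapped that of Tnnt2 only through MGL KO replicate 4, and it overlapped that of Tnni1, whose highest library was at 15.8. By canonical transcript length, Tnnt1 (lowest 32.7) and Tnnt2 (highest 34.4 without MGL KO replicate 4) overlapped in the other libraries too. Below Tnnt1 by exonic length, cardiac Tnnt2 (median 5.61) and slow Tnni1 (median 4.91) had ranges that overlapped. So did Tnni1, Tnnc2 (median 2.56), Tnnc1 (median 1.56) and Tnni3 (median 0.71) with their neighbors in this order, all in normalized CPM per kb. The order of the 8 medians was alike when the length of the canonical transcript was used. The levels of Tnni2 and Tnnt3 did not differ beyond the choice of length, since the ratio of Tnnt3 to Tnni2 within a library was 0.79 to 0.93 per exonic length and 0.90 to 1.05 per canonical transcript length. Coding sequences of the same family shared between 69.4% and 72.0% of aligned bases, so that no member was a near-identical copy of another.

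Slow troponin T and I varied widely among the esophagi and varied together. Tnnt1 and Tnni1 lie on different chromosomes, at chr7:4507567-4519381 on the reverse strand and chr1:135707172-135738727 on the forward strand of GRCm39. Since the 2 genes moved alike, the 250 bases upstream of their RefSeq start sites are shown 5′ to 3′, with matches to the motifs named below in capitals. The sequences are from RefSeq (GRCm38.p6) and were found unchanged on GRCm39, at chr7:4518975-4519224 (reverse strand) for Tnnt1 and at chr1:135726909-135727158 (forward strand) for Tnni1.
Tnnt1: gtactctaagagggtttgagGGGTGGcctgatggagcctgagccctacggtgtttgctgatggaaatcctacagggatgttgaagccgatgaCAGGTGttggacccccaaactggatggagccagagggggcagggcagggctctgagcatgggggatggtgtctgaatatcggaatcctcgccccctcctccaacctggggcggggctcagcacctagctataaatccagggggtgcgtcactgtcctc
Tnni1: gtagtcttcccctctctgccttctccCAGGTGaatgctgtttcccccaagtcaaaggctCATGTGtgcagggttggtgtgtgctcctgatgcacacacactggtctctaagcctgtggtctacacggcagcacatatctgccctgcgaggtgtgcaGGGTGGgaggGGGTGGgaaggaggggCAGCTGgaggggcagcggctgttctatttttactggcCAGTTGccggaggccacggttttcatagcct

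The motifs searched on both strands were the E-box CANNTG bound by myogenic factors, the MCAT element CATTCC bound by TEAD factors, the GATA site GATAA, the CACC box CCACCC and the MEF2 site by its consensus, and entries were found for 6 of the 8 members. Tnnt1 held 1 E-box and 1 CACC box, and Tnni1 held 4 E-boxes and 2 CACC boxes. Over 32851 promoters of the same length, 66.2% held an E-box and 28.1% a CACC box, so these matches were common. RefSeq listed 2 starts each for Tnni1 and Tnnt2, of which only the first was used. The stretches of Tnnt1, Tnni1, Tnnt2 and Tnni3 lie inside the annotated genes, so the matches describe 1 start of each gene. A match of letters is a description and not a sign that a factor was bound.

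Tnnt1, the slow troponin T, had 142, 300.5, 50.3 and 79.6 normalized CPM in MGL KO replicates 1 to 4. In WT replicates 1 to 4 it had 35.9, 62.2, 143 and 131 normalized CPM. The highest library was from MGL KO and the lowest from WT, but the groups overlapped, with MGL KO replicates 3 and 4 below WT replicates 3 and 4. The log2 fold change was 0.62 (SE 0.59, edgeR quasi-likelihood adjusted p = 0.772), and it was -0.04 without MGL KO replicate 2.

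Tnni1, the slow troponin I, had 38.7, 56.9, 11.5 and 13.3 normalized CPM in MGL KO replicates 1 to 4. The WT replicates 1 to 4 had 6.86, 10.2, 26.4 and 22.0 normalized CPM. As for Tnnt1, MGL KO replicate 2 was highest and WT replicate 1 lowest, and the groups overlapped. Its log2 fold change was 0.88 (SE 0.59, edgeR quasi-likelihood adjusted p = 0.687), and it was 0.38 without MGL KO replicate 2.

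Between the lowest and the highest library, Tnnt1 varied 8.36-fold and Tnni1 8.30-fold, whereas the ratio of their levels per kb varied only 1.66-fold, between 5.53 and 9.20. Likeness of pattern was measured as the root mean square difference between log2(CPM + 1) values centered on their mean over the 8 libraries. Of the 14172 genes compared, Tnni1 was the gene most like Tnnt1, and Tnnt1 the gene most like Tnni1, with a difference of 0.23 beside a spread of 0.92 in each gene itself. This held over the 7 libraries without MGL KO replicate 4, where the difference was also 0.23. Over all 8 libraries the next gene in both orders was Myoz2, which encodes a calsarcin of slow fiber Z-discs, with 0.44 from Tnnt1 and 0.38 from Tnni1. The third was Gm17823 for Tnnt1 (0.45) and Lmod2, an actin filament nucleator, for Tnni1 (0.45). Without MGL KO replicate 4, Myoz2 and Lmod2 were again next for Tnni1 (0.40 and 0.48), whereas for Tnnt1 the phospholamban gene Pln came before Myoz2 (both 0.47) and Gm17823 was no longer among the first 3. The 8 points share library depth and the amount of muscle in the sample, and the likeness is a description.

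**Figure D2:**
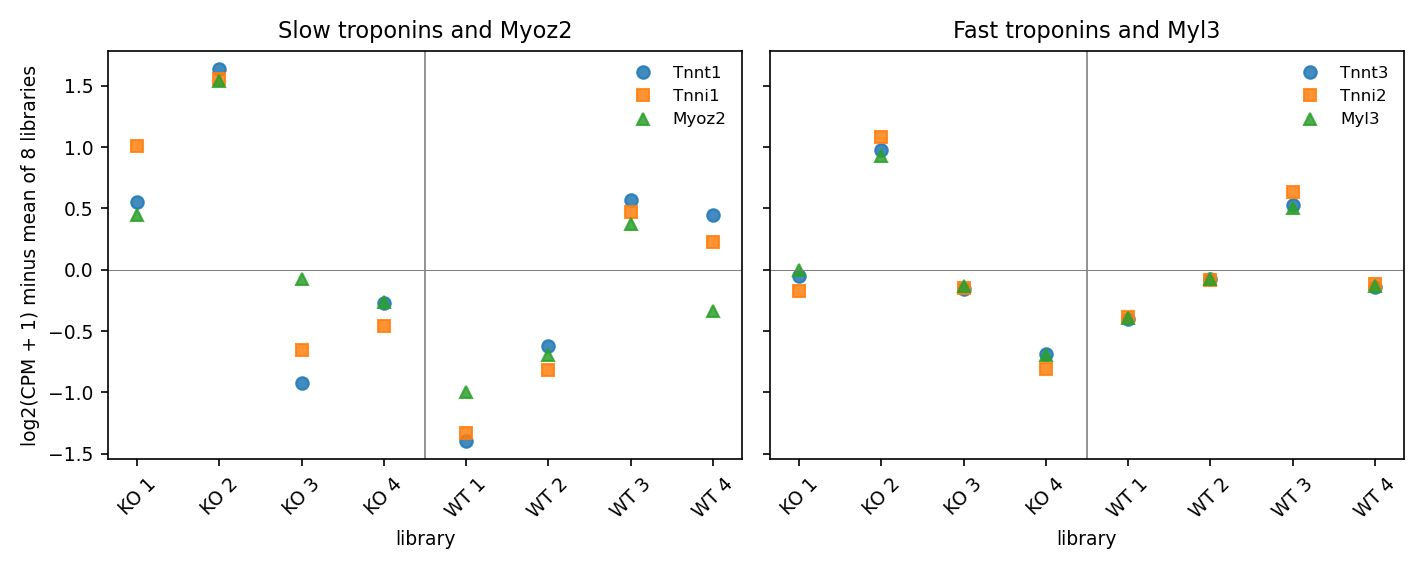
Log2(CPM + 1) of slow Tnnt1, slow Tnni1 and Myoz2 (left) and of fast Tnnt3, fast Tnni2 and Myl3 (right) in each library, less the mean of the gene over the 8 libraries, with a vertical line between MGL KO and WT. The slow genes spread farther from 0 than the fast genes, and in both panels MGL KO replicate 2 is the highest library.

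The summed skeletal muscle markers also differed between libraries. Their lowest sum was in MGL KO replicate 4, which was not the lowest library in Tnnt1 or Tnni1. Expressed per 1000 normalized CPM of skeletal muscle markers, Tnnt1 still varied 4.90-fold and Tnni1 4.86-fold between libraries, against 1.56-fold for Tnnt3 and 1.83-fold for Tnni2. On that scale Tnnt1 was at 3.17 ± 1.65 (SD, n = 4) in MGL KO and 2.20 ± 1.04 (SD, n = 4) in WT, and Tnni1 was at 0.668 ± 0.343 (SD, n = 4) and 0.387 ± 0.180 (SD, n = 4), with overlapping groups for both. With skeletal muscle expression as a covariate in edgeR's quasi-likelihood fit, the log2 fold change was 0.50 for Tnnt1 (SE 0.39, adjusted p = 0.590) and 0.72 for Tnni1 (SE 0.35, adjusted p = 0.418).

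Fast troponin T and I made up nearly all of their families, and their fitted differences between the genotypes were smaller than their standard errors. Tnnt3, the fast troponin T, lies at chr7:142048605-142070280, and Tnni2, the fast troponin I, lies 50.5 kb away at chr7:141995545-141998147, both on the forward strand with Lsp1 between them. Tnnt3 had 7140, 14548, 6650 and 4590 normalized CPM in MGL KO replicates 1 to 4. WT replicates 1 to 4 had 5608, 7009, 10691 and 6708 normalized CPM. MGL KO held both the highest and the lowest library. Its log2 fold change was 0.13 (SE 0.37, edgeR quasi-likelihood adjusted p = 0.922), and it was -0.29 without MGL KO replicate 2.

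Tnni2 had 2839, 6771, 2880 and 1822 normalized CPM in MGL KO replicates 1 to 4. In WT replicates 1 to 4 it had 2443, 3016, 4953 and 2952 normalized CPM. Its libraries fell much as those of Tnnt3 did, with MGL KO replicate 2 and WT replicate 3 on top, the 2 libraries that were also lowest in squamous epithelium markers. The log2 fold change was 0.10 (SE 0.40, edgeR quasi-likelihood adjusted p = 0.951), and it turned to -0.41 without MGL KO replicate 2.

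Over all 8 libraries, the genes most like Tnnt3 were Myl3, a myosin light chain of slow and ventricular muscle, at 0.03, then Gapdh and the aldolase gene Aldoa, both at 0.07. For Tnni2 they were Aldoa at 0.05, Jsrp1, a protein of the sarcoplasmic reticulum junction, at 0.06 and the muscle phosphoglycerate mutase Pgam2 at 0.06. Without MGL KO replicate 4 they were Atp5j, Cox7c and Myl3 for Tnnt3, all at 0.03, and Jsrp1 (0.04), Aldoa (0.05) and Cox6a2 (0.05) for Tnni2, where Atp5j, Cox7c and Cox6a2 encode subunits of mitochondrial ATP synthase and cytochrome c oxidase. Over all 8 libraries Tnni2 was at rank 10 in likeness to Tnnt3, and Tnnt3 was at rank 4 in likeness to Tnni2. Between slow Tnnt1 and Tnni1 and fast Tnnt3 and Tnni2 the likeness was lower. Tnnt3 was at rank 123 for Tnnt1 but Tnnt1 at rank 9105 for Tnnt3, with a difference of 0.63 beside a spread of 0.49 in Tnnt3 itself. Likewise Tnni2 was at rank 245 for Tnni1 but Tnni1 at rank 8531 for Tnni2, with a difference of 0.67 beside a spread of 0.55 in Tnni2. Myl3 itself had a log2 fold change of 0.13 (SE 0.34, edgeR quasi-likelihood adjusted p = 0.919).

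Fast troponin C was counted at a level far from that of its partners. Tnnc2 had 18, 39, 25 and 40 counts in MGL KO replicates 1 to 4, which are 1.10, 3.52, 1.54 and 2.25 normalized CPM. In WT replicates 1 to 4 it had 24, 41, 43 and 40 counts, which are 1.34, 2.34, 2.83 and 2.61 normalized CPM. The groups overlapped, and the log2 fold change was -0.13 (SE 0.40, edgeR quasi-likelihood adjusted p = 0.934). It was -0.47 without MGL KO replicate 2 and also with Y-linked expression as a covariate, and turned to 0.09 without MGL KO replicate 1. Per kb, the level of Tnni2 was between 438 and 1392 times that of Tnnc2 in the same library. As background, the 3 subunits are assembled together in each troponin complex.

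Tnnc2 also overlaps another gene. It lies at chr2:164619075-164621887 on the reverse strand of GRCm39, and in GENCODE release 39 an exon of Ube2c, a ubiquitin-conjugating enzyme gene on the opposite strand, runs through it. Of the exonic bases of Tnnc2, 616 (68.7%) lie in Ube2c exons, and of its 483 coding bases 480 (99.4%) do. Only 1 of the 9 annotated Ube2c transcripts reaches into Tnnc2. At least 50% of exonic bases lay in exons of other genes in 3.13% of the 14598 tested genes with a position. The start of the coding sequence is shown to mark what is left outside the overlap. The 300 bases are the spliced coding sequence, 5′ to 3′, from exons within chr2:164619665-164621585, and capitals mark the 297 bases that are also Ube2c exon.
Tnnc2: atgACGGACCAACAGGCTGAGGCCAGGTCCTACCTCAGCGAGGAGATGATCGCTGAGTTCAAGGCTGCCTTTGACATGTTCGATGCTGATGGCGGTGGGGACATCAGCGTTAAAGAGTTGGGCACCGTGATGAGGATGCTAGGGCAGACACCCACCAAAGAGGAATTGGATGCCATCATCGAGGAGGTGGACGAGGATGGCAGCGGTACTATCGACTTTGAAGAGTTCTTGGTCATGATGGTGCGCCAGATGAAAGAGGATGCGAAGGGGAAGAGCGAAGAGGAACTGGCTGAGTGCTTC

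Neither the counting tool, its annotation nor its use of strand is given in the sources used here. How reads in exons of both genes were counted is therefore unknown, and its part in the level of Tnnc2 was not tested. Ube2c itself was at 30.3 ± 7.17 normalized CPM (SD, n = 4) in MGL KO and 18.8 ± 4.17 (SD, n = 4) in WT, with overlapping groups and a log2 fold change of 0.68 (SE 0.21, edgeR quasi-likelihood adjusted p = 0.478). Of the other fast isoforms, Tnni2 shared no exonic base with another gene, and Tnnt3 shared 4.89% of its exonic bases with Prr33. The level of Tnnc2 is uncertain for this reason.

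**Figure D3:**
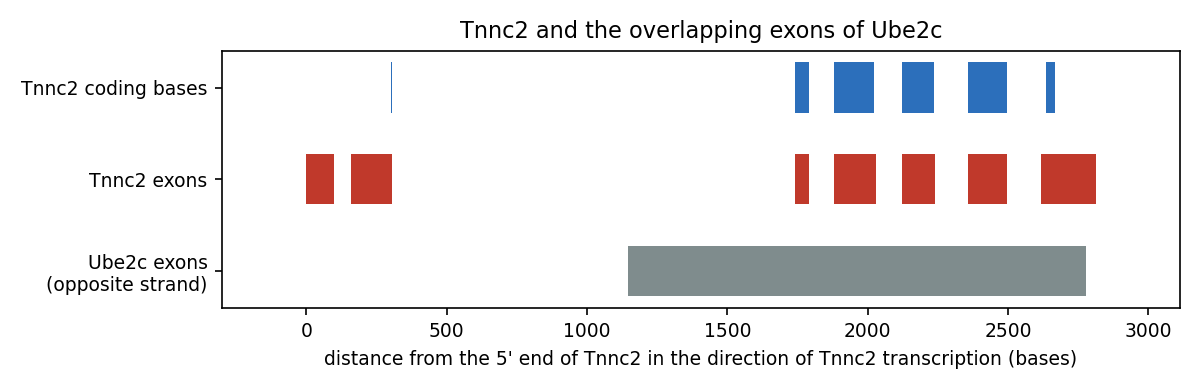
Exons of Tnnc2 (red, all annotated transcripts), its coding bases (blue) and the exons of Ube2c on the opposite strand (grey), against the distance in bases from the 5′ end of Tnnc2 along its direction of transcription. The single long Ube2c exon covers all coding exons of Tnnc2 but the first, which holds only the start codon.

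Cardiac troponins were low in 7 libraries and high in MGL KO replicate 4. Tnnt2, the cardiac troponin T, lies 25010 bases from slow Tnni1 at chr1:135763738-135780315 on the forward strand, with Lad1 between them. Tnni3, the cardiac troponin I, lies 1.92 kb from slow Tnnt1 at chr7:4521300-4527228 on the reverse strand, with no coding gene between. Tnnc1, the troponin C of slow fibers and heart, lies at chr14:30930232-30933708 on the forward strand, inside the locus of Nisch, with which it shares no exonic base. The RefSeq sequences upstream of their starts are shown in the same way as above, since all 3 genes were highest in the same library, and they lie on GRCm39 at chr1:135763822-135764071 (forward), chr7:4525528-4525777 (reverse) and chr14:30930019-30930268 (forward).
Tnnt2: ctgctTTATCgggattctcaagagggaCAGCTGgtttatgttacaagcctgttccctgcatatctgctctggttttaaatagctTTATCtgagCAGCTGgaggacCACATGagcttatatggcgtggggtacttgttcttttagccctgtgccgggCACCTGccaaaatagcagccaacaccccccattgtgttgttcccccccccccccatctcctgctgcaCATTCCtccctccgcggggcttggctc
Tnni3: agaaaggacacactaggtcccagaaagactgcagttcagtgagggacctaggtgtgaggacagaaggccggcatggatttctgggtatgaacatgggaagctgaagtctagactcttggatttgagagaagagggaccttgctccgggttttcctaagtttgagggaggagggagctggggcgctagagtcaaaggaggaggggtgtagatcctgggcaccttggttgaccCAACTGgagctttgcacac
Tnnc1: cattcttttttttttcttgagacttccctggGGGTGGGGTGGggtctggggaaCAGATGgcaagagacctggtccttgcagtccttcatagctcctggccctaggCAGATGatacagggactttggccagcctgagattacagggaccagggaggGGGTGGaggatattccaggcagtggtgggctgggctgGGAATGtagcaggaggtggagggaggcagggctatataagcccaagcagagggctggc

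Tnnt2 and Tnnc1 each held 1 MCAT element, a motif found in 12.6% of all promoters, and Tnni3 held none. Tnnt2 also held 2 GATA sites, which 22.6% of promoters contain, and Tnnc1 held 3 CACC boxes. None of the 6 members with an entry held a match to the MEF2 consensus, found in 2.92% of promoters.

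Tnni3 had 1.59, 1.53, 1.97 and 106 normalized CPM in MGL KO replicates 1 to 4. WT replicates 1 to 4 had 1.95, 1.14, 1.31 and 2.80 normalized CPM. Replicate 4 of MGL KO was 37.9 times the next highest library, and the remaining MGL KO libraries lay within the WT range. Its log2 fold change was 3.95 (SE 1.48, edgeR quasi-likelihood adjusted p = 0.523) with all libraries, -0.08 without MGL KO replicate 4 and 1.93 with skeletal muscle expression as a covariate. Part of the Tnni3 annotation (15.8% of exonic bases) overlaps Dnaaf3, a ciliary dynein assembly gene on the same strand whose level was 19.3 normalized CPM in MGL KO replicate 4 and 2.34 or less elsewhere.

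Tnnt2 had 53.9, 61.1, 48.2 and 412 normalized CPM in MGL KO replicates 1 to 4. In WT replicates 1 to 4 it had 27.8, 42.1, 48.1 and 51.8 normalized CPM. MGL KO replicate 4 was 6.75 times the next highest library, and Tnnt2 was at least 27.8 in every library. The log2 fold change was 1.76 (SE 0.70, edgeR quasi-likelihood adjusted p = 0.550) with all libraries and 0.36 (SE 0.20, adjusted p = 0.577 in the same test) without MGL KO replicate 4.

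Tnnc1 had 24, 29, 15 and 546 counts in MGL KO replicates 1 to 4, which are 1.47, 2.62, 0.92 and 30.7 normalized CPM. In WT replicates 1 to 4 it had 2, 11, 30 and 33 counts, which are 0.11, 0.63, 1.97 and 2.15 normalized CPM. Apart from MGL KO replicate 4, the groups overlapped, and WT replicate 1 lay under the 3-count floor. The log2 fold change was 2.89 (SE 1.24, edgeR quasi-likelihood adjusted p = 0.575) with all libraries and 0.45 (SE 0.78, adjusted p = 0.832 in the same test) without MGL KO replicate 4, and it was 1.86 with the skeletal muscle covariate. Over the 7 other libraries Tnnc1 was at rank 5 in likeness to Tnnt1 and rank 9 in likeness to Tnni1, with differences of 0.50 and 0.53, whereas over all 8 libraries it was at rank 13498 and rank 13679. In the other direction, Tnnt1 was at rank 3255 and Tnni1 at rank 4367 in likeness to Tnnc1 over the 7 libraries. The differences were nearly as large as the spread of Tnnc1 itself (0.56). Tnnc1 varied 23.5-fold over these libraries, but 1 is added to CPM before the log, which narrows the spread at such low levels.

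Other heart genes were high in the same library. All 10 cardiomyocyte markers were highest in MGL KO replicate 4, where they summed to 1548 normalized CPM against 13.2 to 28.1 in the other libraries. Myh6, the alpha myosin heavy chain of the mouse heart, was at 1170 normalized CPM there and at most 9.06 elsewhere, Myl7, the atrial light chain, was at 187 and at most 3.42, and Nkx2-5, the cardiac homeobox factor, was at 2.42 and at 0 in the other 7 libraries. Airway ciliated markers were also highest in this library for 10 of 12 genes, with Foxj1 at 228 normalized CPM and at most 1.65 elsewhere. The sum of these 12 genes was 1992 against 850 to 1542 elsewhere, and was mostly Tubb4b and Tppp3, which were abundant in every library. The part of other tissue in the values of Tnni3, Tnnt2 and Tnnc1 was not tested. The genes most like Tnni3 over the 8 libraries were Prom1, Dnah2 and Dnah12, the last 2 of which encode ciliary dyneins, and those most like Tnnc1 were Lgr6, Tnnt2 and Arhgdig. For Tnnt2 they were Arhgdig, Enkur and Traf3ip1, of which Enkur and Traf3ip1 encode ciliary proteins. These orders rest on MGL KO replicate 4. Over the 7 other libraries none of these genes was among the first 3, which were Fbxo21, Fblim1 and Slc16a7 for Tnni3 (all 0.12), Inhba (0.14), Tnni3k (0.18) and Hspb7 (0.19) for Tnnc1, and Bag2 (0.07), Map1a (0.10) and Pgr (0.11) for Tnnt2. Tnnt2 was then at rank 24 in likeness to Tnnc1 but Tnnc1 at rank 2752 for Tnnt2, with a difference of 0.29 beside a spread of 0.33 in Tnnt2 itself.

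**Figure D4:**
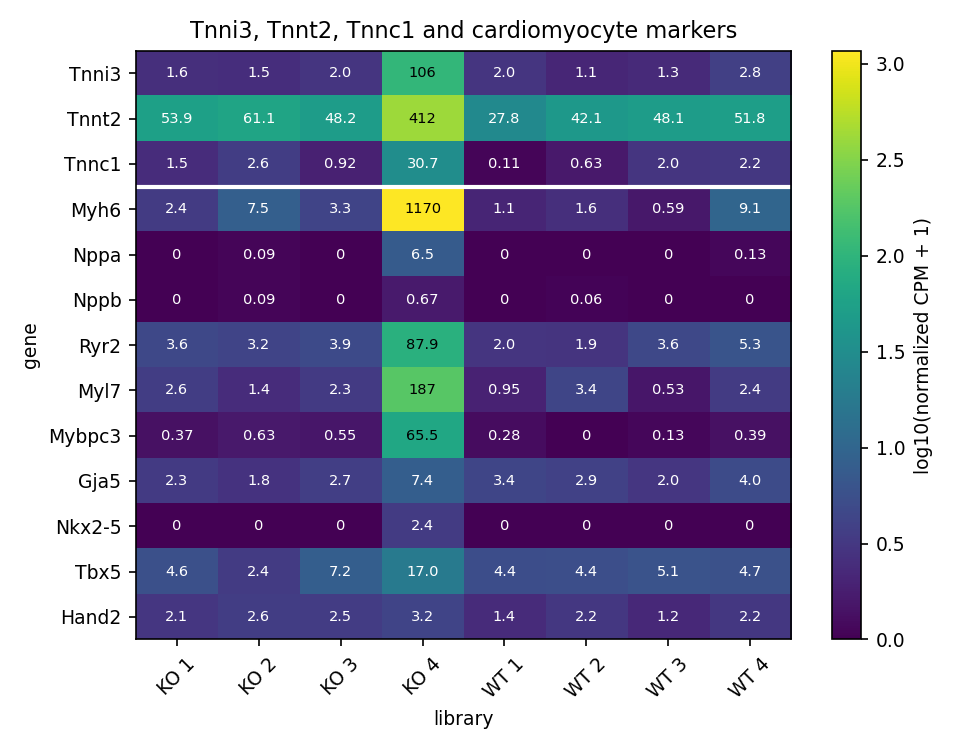
Normalized CPM (printed in each cell, colored on a log10(CPM + 1) scale) of Tnni3, Tnnt2 and Tnnc1, above the white line, and of the 10 cardiomyocyte markers, below it, in each library. The column of MGL KO replicate 4 is the highest in every row, while Tnnt2 is between 27.8 and 61.1 in the other libraries.

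Without MGL KO replicate 4, 0 of 8 members passed the same test, where 0.0133% of all genes did, and the 3 large differences shrank to between -0.08 and 0.45. The difference in Tnnt1 and Tnni1 was then 0.82 (SE 0.62, edgeR quasi-likelihood adjusted p = 0.637) and 1.13 (SE 0.58, adjusted p = 0.560 in the same test).

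**Figure D5:**
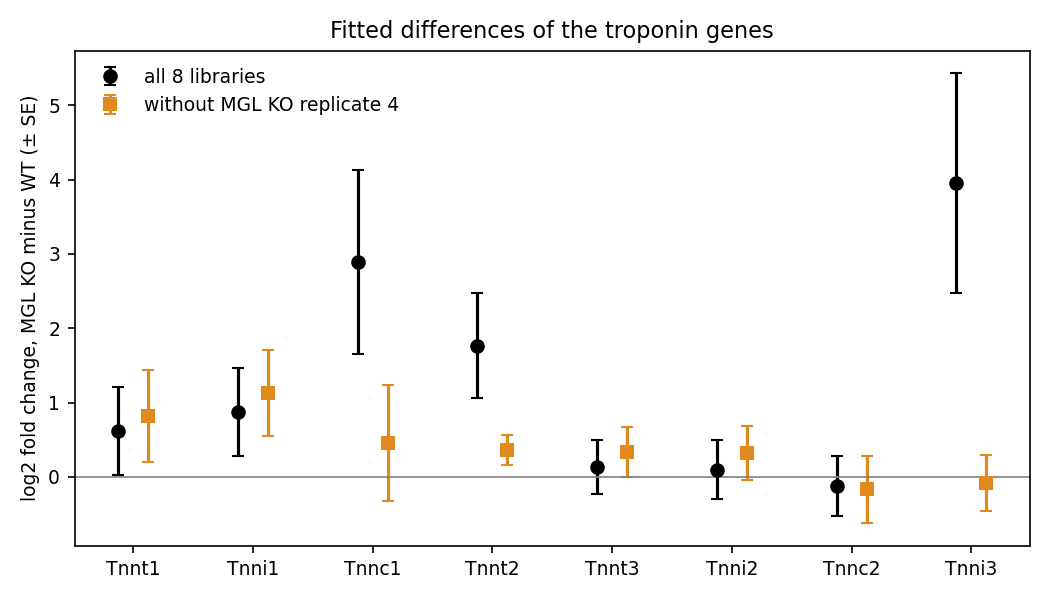
Log2 fold change of each troponin gene, MGL KO minus WT, with its standard error as bars, over all 8 libraries (black circles) and without MGL KO replicate 4 (orange squares). Without this library Tnnc1, Tnnt2 and Tnni3 are at 0.45, 0.36 and -0.08, and the other 5 genes keep their direction.

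The share of slow isoforms was computed within each family from levels per kb. Slow Tnnt1 made up 3.61%, 3.76%, 1.41% and 3.05% of troponin T in MGL KO replicates 1 to 4, and 1.20%, 1.65%, 2.47% and 3.56% in WT replicates 1 to 4. Means were 2.96% ± 1.08 (SD, n = 4) and 2.22% ± 1.04 (SD, n = 4), and the groups overlapped. Slow Tnni1 made up 0.380% ± 0.184 (SD, n = 4) of troponin I in MGL KO and 0.218% ± 0.0967 (SD, n = 4) in WT, also with overlap. The rest was almost all fast: Tnnt3 was 92.7% to 98.6% of troponin T and Tnni2 was 96.0% to 99.8% of troponin I, with both lowest values in MGL KO replicate 4, where cardiac isoforms took 4.21% and 3.73%. In the 7 other libraries cardiac Tnnt2 was 0.204% to 0.376% of troponin T and cardiac Tnni3 0.0150% to 0.0629% of troponin I. For troponin C the share of Tnnc1 was 53.5% ± 26.7 (SD, n = 4) in MGL KO and 25.1% ± 15.8 (SD, n = 4) in WT, with overlap. Without MGL KO replicate 4, where it was 91.7%, the MGL KO mean was 40.8% ± 9.99 (SD, n = 3), so that the difference fell from 28.4 to 15.7 percentage points. This share rests on the low counts of both genes and on the overlap of Tnnc2 with Ube2c. Leaving out single libraries moved the difference in the slow share between 0.396 (without WT replicate 1) and 1.25 (without MGL KO replicate 3) percentage points for troponin T, and between 0.0798 (without MGL KO replicate 1) and 0.227 (without MGL KO replicate 3) for troponin I. No p is given for shares, which combine several members.

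Genes that work with troponin were read from the same fit, without a set test. Of 16 thin filament partners, such as actin, tropomyosin and nebulin, 11 were fitted higher and 5 lower in MGL KO, and 0 passed the test (1 at an unadjusted p under 0.05, Xirp1, with a log2 fold change of 0.42, SE 0.15 and an edgeR quasi-likelihood adjusted p of 0.523). Of 12 tested slow fiber genes 8 were fitted higher and 4 lower, and of 13 fast fiber genes 7 higher and 6 lower, with 0 called in either list and 1 and 2 genes at an unadjusted p under 0.05, where 8.65% of all tested genes were. Slow Myh7 was at 6.82 ± 6.57 normalized CPM (SD, n = 4) in MGL KO, of which 16.6 was the value of replicate 4, and at 3.39 ± 2.89 (SD, n = 4) in WT. Its log2 fold change was 1.02 with all libraries and 0.08 without MGL KO replicate 4. Myh4, the myosin of the fastest fibers, was at 1055 ± 679 normalized CPM (SD, n = 4) in MGL KO and 2661 ± 725 (SD, n = 4) in WT, with a log2 fold change of -1.33 (SE 0.41, edgeR quasi-likelihood adjusted p = 0.485) and overlapping groups. The median log2 fold change was 0.12 for thin filament partners, 0.24 for slow fiber genes and 0.01 for fast fiber genes, beside 0.02 for all genes. Without MGL KO replicate 4 these medians were 0.29, 0.21 and 0.15, so that slow and fast fiber genes lay closer together.

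Among 9 tested developmental fiber genes and 18 fiber type regulators, 0 passed the test, and 2 and 7 had an unadjusted p under 0.05, beside 8.65% of all tested genes. The groups were separate in 2 of the developmental genes and 3 of the regulators, beside 6.02% of all tested genes. Both lists were chosen with earlier results of these data known, so these counts cannot be read as an excess over all genes. Myh3, the embryonic myosin heavy chain, had 44.7, 61.4, 41.1 and 31.0 normalized CPM in MGL KO replicates 1 to 4. WT replicates 1 to 4 had 8.48, 6.73, 13.1 and 12.8 normalized CPM. All MGL KO libraries were above all WT libraries, and the log2 fold change of 2.11 (SE 0.27) had an adjusted p of 0.0535 in edgeR's quasi-likelihood test. The call depended on the test and, within the quasi-likelihood test, on the scaling, filter and covariates: of the 21 alternatives 7 called Myh3, among them edgeR's exact test (adjusted p = 2.93e-09) and the quasi-likelihood fit scaled by library size alone (adjusted p = 0.0377), and the adjusted p over all alternatives ranged from 4.24e-10 with DESeq2 to 0.556 with the replicate block. Myod1, a myogenic transcription factor, also had separate groups, at 33.9 ± 9.14 normalized CPM (SD, n = 4) in MGL KO and 16.5 ± 3.30 (SD, n = 4) in WT, with a log2 fold change of 1.03 (SE 0.22, adjusted p = 0.306 in the same test), and 3 of the 21 alternatives called it, with an adjusted p between 0.00640 with DESeq2 and 0.764. Among the regulators, Esrrg and Rcan1 were higher in every MGL KO library than in any WT library and Sox6 was lower, with log2 fold changes of 0.59, 0.37 and -0.32 and adjusted p of 0.433, 0.550 and 0.550 in edgeR's quasi-likelihood test. Rcan1 and Sox6 are named here because their values were seen to separate. Of the troponin genes none showed such a separation.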

How the data were processed

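The 8 libraries (4 MGL KO, 4 WT) were made from poly(A)-selected RNA of frozen esophagus, and reads were checked with FastQC 0.11.9, trimmed with Cutadapt and aligned to GRCm39 with STAR 2.7.10b by the authors, who deposited whole-number counts per gene symbol without normalization. The counting tool, annotation and use of strand are not given in the sources used here. Groups were taken from the labels. Members and gene lists were chosen with earlier results of these data known.

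Of 22721 symbols with a count, filterByExpr at a minimum count of 10 kept 14864. Library sizes over these genes were scaled by TMM factors, and genotypes were compared with edgeR 4.0.16 (R 4.3.3) by the quasi-likelihood test with Benjamini-Hochberg adjustment and a threshold of 0.05. The study's methods name edgeR and its exact test, which was an alternative here. Other alternatives were DESeq2 1.42.0, limma-voom 3.58.1, other factors and filters, covariates and leaving out each library. Standard errors were obtained from the fold change and the F statistic. The test was tested on simulated data. The named genes were the 8 members, Mgll, per list the called genes and up to 3 with the largest change, the 3 genes most like each member, and genes overlapping or between members. Nkx2-5, Tubb4b, Tppp3, Rcan1, Sox6 and the genes most like a member without MGL KO replicate 4 were named after their values were seen. Lengths and positions came from GENCODE release 39, which held 93.6% of symbols, and promoters from RefSeq. Libraries of a group differed beyond sampling noise (chi-square per degree of freedom of 13.6 or more). Counting floors cover counting error only.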

Additional observations from a re-analysis of the deposited data

Results flagged for a closer look

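In groups of 4 libraries, the gap between the highest or lowest library and its neighbor was compared with Dixon's limit, which chance passes in about 1 of 20 groups. Of 46 groups compared, 5 passed, beside 2.3 expected by chance. The groups share the same libraries and are not independent, so the expected number is only a rough guide. Of the 5 that passed, 4 were MGL KO replicate 4. In it Tnnc1 was at 30.69 normalized CPM (2.62 or less in the remaining MGL KO libraries), Tnnt2 at 412.1 (at most 61.1), Tnni3 at 106.3 (at most 1.97) and the summed cardiomyocyte markers at 1548 (at most 22.5). The fifth was WT replicate 3, whose summed airway ciliated markers were 1397 normalized CPM, against 938 or less in the remaining WT libraries, mostly from Tppp3 (712 normalized CPM) and Tubb4b (667).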

How the results depend on the processing

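No member passed 0.05 under any of the 21 alternatives (smallest adjusted p 0.259, Tnni3 in edgeR's exact test). Calls over all genes numbered 7 by the quasi-likelihood test, 65 by the exact test and 137 by DESeq2. DESeq2 gave Tnnt2, Tnni3 and Tnnc1 no p-value, adjusted or not, so they could not pass there. Tnnc1 was not tested with at least 10 counts in every library. The direction of small differences was not stable. With limma-voom the median of the 8 members was 0.42 and 5 of 8 were higher, and Tnni3 was at 0.82, Tnnt2 at 0.64, Tnnc1 at 1.20, Tnnt1 at 0.20 and Tnnc2 at -0.60. Leaving out a library moved the log2 fold change of Tnnt1 between -0.036 and 0.92, of Tnni1 between 0.38 and 1.22, of Tnnt3 between -0.289 and 0.36, of Tnni2 between -0.407 and 0.36, of Tnnc2 between -0.472 and 0.095, and of Tnni3 between -0.078 and 4.35. Tnnt3 was at -0.0043 with limma-voom and -0.013 with the skeletal muscle covariate, and Tnni2 at -0.0059 with library size alone, -0.078 with limma-voom, -0.082 with the skeletal muscle covariate and -0.083 with the Y-linked covariate. With the replicate block Tnni3 was at 1.44, Tnnt2 at 1.08, Tnnc1 at 2.12, Tnnt3 at 0.038 and Tnni2 at -0.033, 0 members passed and 2 genes in all were called; equal numbers did not deviate together (correlations -0.137, -0.280, -0.142 and 0.079).

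Of the listed partner genes, 0 were called as reported, against 1 with library size alone, 1 with at least 10 counts in every library, 1 with limma-voom and 1 with the skeletal muscle covariate (Myh3 in each), 2 by the exact test with or without the filter (Myh3, Myod1) and 3 by DESeq2 (Myh3, Myod1, Tppp3). The difference in the slow share of troponin I was 0.161 percentage points from levels per kb and 0.344 with counts not divided by length, and that of troponin T 0.737 and 0.383. Use of canonical transcript length and likeness without MGL KO replicate 4 were chosen after seeing the data. Outside MGL KO replicate 4, Tnnc1, Tnnc2 and Tnni3 rest on 2 to 43 counts per library, which limits them.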
